A study of Mus musculus with 10 samples.

Results

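Butyrylation of lysine 8 of histone H4 (H4K8bu) was mapped in mouse spermatocytes and round spermatids by ChIP-seq, the sequencing of chromatin fragments pulled down with an antibody. The results below concern the islands of H4K8bu on chromosomes 1 to 19. An island is an interval in which the authors' island caller found more immunoprecipitated (ChIP) reads than input reads once the counts had been scaled. The spermatocyte list held 40695 such islands and the round spermatid list 33800, and every one of them was used. These 74495 islands were part of 76113 H4K8bu islands on all chromosomes and of 301484 islands in the 8 lists of the series, which also cover H4K5bu, H4K8ac and H4K5ac.

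Butyrylation and acetylation are alternative acyl groups on the same lysines of the H4 tail, and both are associated with active gene promoters. Spermatocytes are male germ cells in meiosis, and round spermatids are the haploid cells that form after the meiotic divisions. Round spermatids still package their DNA with histones, which are later exchanged for transition proteins and protamines. Brdt, a bromodomain protein of the testis, binds H4 tails acetylated at lysines 5 and 8, and butyrylation at lysine 5 hinders this binding.

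Both stages came from testes of Oncins France 1 mice, with no allele or treatment in the labels of either. Germ cells had been fractionated by stage, chromatin had been prepared as mononucleosomes, and a rabbit antibody against H4K8bu had been used. Each stage had 1 H4K8bu library and 1 input library, sequenced from nucleosomes set aside before immunoprecipitation, and the 4 lists of a stage share that input. The sources used here give neither the purity of the fractions nor the number of animals, and the stage labels were not checked against marker genes because islands were not assigned to genes. With 1 library per stage, no difference between the stages could be set against replicates and no test was made. Intervals are 95% and cover counting error, or for a median the spread between islands, and neighbouring islands are not independent.

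The islands of the spermatocyte list held 9101516 ChIP reads and 2292205 input reads, and those of the round spermatid list 8201772 and 3309314. Fold is ChIP reads divided by input reads and multiplied by the scaling constant of the list, 1.18 in spermatocytes and 1.53 in round spermatids. The median spermatocyte island had a fold of 4.38 (4.34 to 4.41), the median round spermatid island one of 3.50 (3.48 to 3.51). That is a shift of -0.32 on the log2 scale between the medians of the lists, and the folds below are given as deposited, without removing it. The middle 80% of folds ran from 2.40 to 8.63 in spermatocytes and from 2.27 to 5.45 in round spermatids, so the spermatocyte list spread over the wider range of fold.

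Most H4K8bu islands of either stage were found again in the other, and the islands called in a single stage were narrower than those called in both. Part of this difference in width is built in, since a wider island meets an island of the other stage more readily. Of the spermatocyte islands, 25145 or 61.8% (61.3 to 62.3) shared at least 1 bp with a round spermatid island, and 15550 or 38.2% had none. Of the round spermatid islands, 24029 or 71.1% (70.6 to 71.6) shared at least 1 bp with a spermatocyte island, and 9771 or 28.9% had none. The longer list thus had the lower share. With the spermatocyte list shortened by fold to the length of the other, the shares were 60.8% and 59.3%, in the reverse order. In bases, 114 Mb were common to both lists, which was 72.0% of the 159 Mb of spermatocytes and 62.9% of the 182 Mb of round spermatids.

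Islands that touched each other across the stages were grouped into regions, 48713 in all. Shared regions, with islands of both stages, numbered 23392 or 48.0%, regions called in spermatocytes alone 15550 or 31.9%, and regions called in round spermatids alone 9771 or 20.1%. Shared regions held 81.1% of the spermatocyte ChIP reads and 87.4% of the round spermatid ChIP reads, so the regions of a single stage carried a smaller share of the reads than of the regions. A region called in 1 stage is one where the other list has no island, which is not a measured absence of the mark.

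Regions of spermatocytes alone had a median width of 2000 bp, a median of 92 ChIP reads and a median fold of 4.17 (4.13 to 4.20). The spermatocyte islands of shared regions had 247 ChIP reads and a fold of 4.75 (4.70 to 4.81). Regions of round spermatids alone had a median width of 2600 bp, 89 ChIP reads and a fold of 2.78 (2.77 to 2.80), against 211 reads and 3.90 (3.88 to 3.92) for the round spermatid side of shared regions. Regions of a single stage were therefore lower than shared ones in both lists, and the gap in fold was wider in round spermatids. Input was also denser there: regions of round spermatids alone had a median of 18.7 input reads per kb against 17.0 in shared regions, and those of spermatocytes alone 14.6 against 14.0. The part of input density in these differences was not tested.

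Width went with the share of islands found again in both lists. When the spermatocyte islands were sorted by width into 10 groups of nearly equal size, the share overlapping a round spermatid island was 14.1% in the narrowest group (median width 1200 bp) and 98.9% in the widest (9800 bp). In round spermatids it was 39.2% in the narrowest group (1600 bp) and 99.6% in the widest (13600 bp). A wider island also meets an island of the other list more readily, so part of this order is built in. Fold behaved differently in the lists, as the plot of islands found again shows. In round spermatids the share was higher in each group of higher fold, from 40.7% at a median fold of 2.04 to 95.8% at 6.08. In spermatocytes it was 68.1% at a fold of 2.09, lowest at 48.3% at a fold of 4.07, and 81.3% at 10.1.

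**Figure D1:**
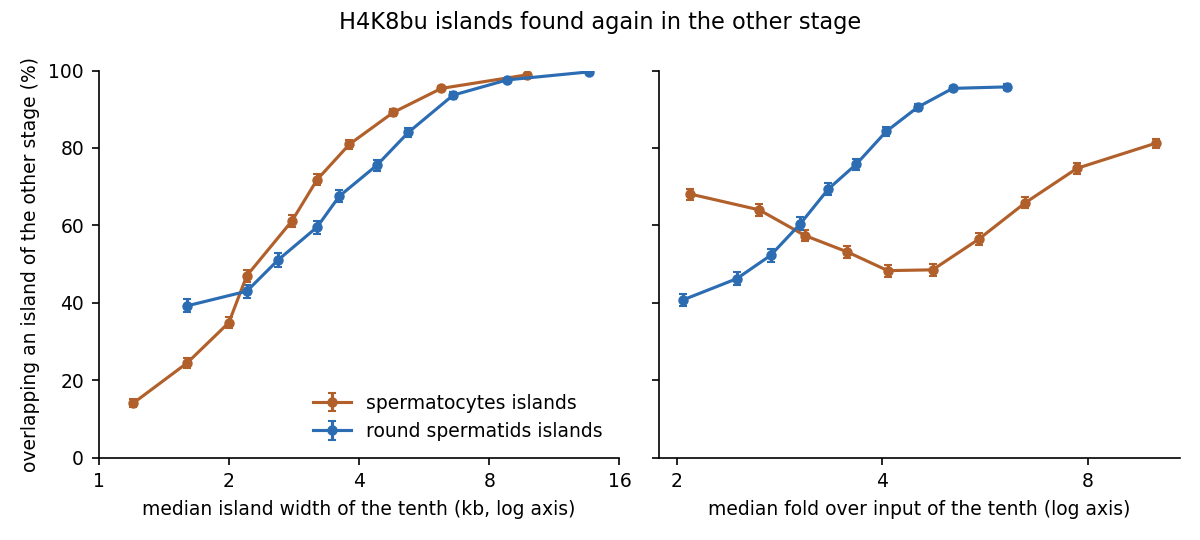
Percent of H4K8bu islands that overlap an island of the other stage, for 10 groups of islands by width (left, median width in kb, log axis) and by fold over input (right, median fold, log axis), with 95% exact binomial intervals. The share is higher in wider islands of both stages, in part because a wider island meets another more readily. By fold the share is higher step by step in round spermatids only. Its lowest value in the spermatocyte list, 48.3%, lies in the middle of that list.

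The lists also differed in this way within classes of width, split at the median fold. Under 2 kb, 22.9% of spermatocyte islands in the lower 50% by fold and 19.8% in the upper 50% overlapped. In round spermatids these shares were 28.5% and 49.4%. Among spermatocyte islands of 2 to under 3 kb, 49.6% of those in the lower 50% of the list by fold and 49.5% of those in the upper 50% overlapped a round spermatid island. Among round spermatid islands of the same widths the values were 35.6% and 67.4%. At 3 to under 5 kb spermatocytes had 75.2% and 82.3%, where round spermatids had 53.9% and 91.5%. At a given width, round spermatid islands of high fold thus overlapped a spermatocyte island more often than those of low fold, whereas in spermatocytes the classes of fold lay much closer together. The spermatocyte split, at a fold of 4.38, lies near the lowest share of that list. Each 50% there mixes high and low shares, so the split cannot show how the share changes with fold within a width.

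The named regions of a single stage, those with the most ChIP reads among regions with a fold of at least 3, were wide for their class. Coordinates are of the mouse build mm9, counted from 1. In spermatocytes they lay at chr14:45388601-45401400 (848 ChIP reads, 203 input reads, fold 4.95), chr7:129371201-129384600 (735, 170, fold 5.12), chr3:78106801-78117800 (700, 135, fold 6.14) and chr19:23822401-23834800 (672, 132, fold 6.03). All 4 also had islands of H4K5bu, H4K8ac and H4K5ac in spermatocytes, and none had an island of any of the 4 marks in round spermatids.

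In round spermatids the named regions lay at chr15:19019801-19027600 (324 ChIP reads, 128 input reads, fold 3.87), chr17:53673001-53681400 (318, 150, fold 3.24), chr14:69735601-69743200 (317, 130, fold 3.73) and chr6:81844801-81853400 (316, 137, fold 3.53). They held fewer reads than the named spermatocyte regions. Each of these 4 already had a short island of H4K5ac in spermatocytes, 1800 bp wide in the first 3 and 3800 bp in the fourth, with a fold of 3.14, 2.31, 2.56 and 3.91. In spermatocytes chr17:53673001-53681400 also had an H4K5bu island of 4200 bp and chr14:69735601-69743200 an H4K8ac island of 1800 bp. An H4K5ac island in spermatocytes was not typical of the class, of which 15.2% had one.

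H4K8bu islands were wider in round spermatids, although there were fewer of them. The median width was 3000 bp in spermatocytes, with the middle 50% at 2000 to 4800 bp, and 4000 bp in round spermatids, with the middle 50% at 2600 to 6600 bp. Islands wider than 10 kb numbered 1895 or 4.66% in spermatocytes and 3720 or 11.01% in round spermatids. Round spermatid islands covered 23.1 Mb more in all. Shared regions had 27.2 Mb more in round spermatids, from 125.3 to 152.5 Mb, and the regions of a single stage 4.09 Mb less, from 33.2 Mb in spermatocytes to 29.2 Mb in round spermatids. The larger extent of H4K8bu in round spermatids was thus found at the shared regions.

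Of the shared regions, 21342 held exactly 1 island of each stage and are called pairs. Median width at the pairs was 3800 bp in spermatocytes and 4800 bp in round spermatids, and the median ratio of widths within a pair was 1.19. The round spermatid island was the wider one in 68.8% of pairs (68.2 to 69.5), the narrower in 25.8%, and as wide in 5.39%. It was at least 2 times as wide in 2251 pairs or 10.5%, and the spermatocyte island was at least 2 times as wide in 476 pairs or 2.23%.

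The extension was symmetric. The left edge lay further out in round spermatids in 59.7% of pairs and the right edge in 59.4%, while 26.9% and 27.3% lay further in. The median outward shift was 200 bp, the step of the island grid, on either side, and the mean was 529 bp on the left and 525 bp on the right. The round spermatid island contained the spermatocyte island in 53.0% of pairs, the reverse held in 17.0%, the islands were staggered in 28.1%, and 1.92% had the same edges. Read by cover, the median spermatocyte island lay wholly inside its partner, which was itself covered to 78.9%.

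**Figure D2:**
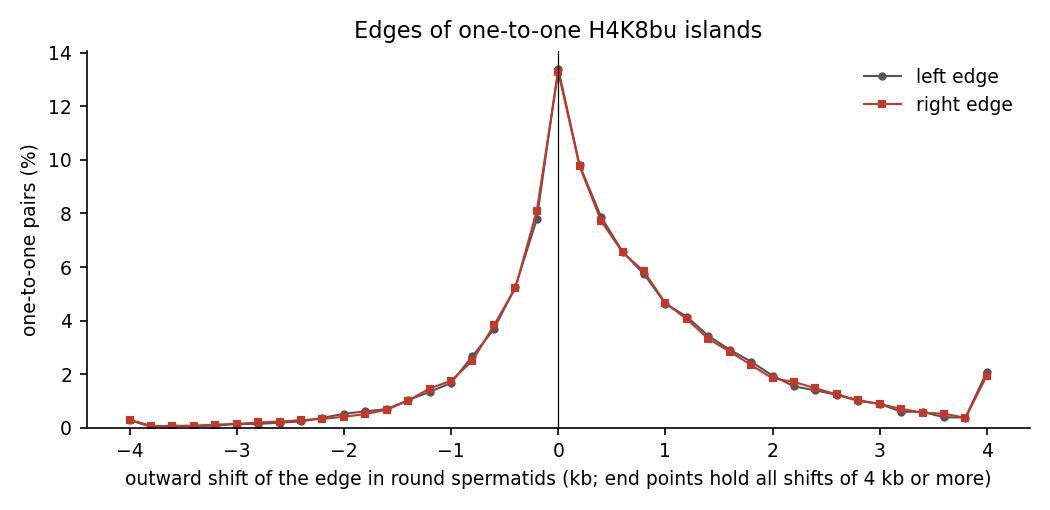
Outward shift of the left and right edge of the round spermatid island relative to its spermatocyte partner (kb, in steps of 200 bp; the end points hold all shifts of 4 kb or more) against the percent of the 21342 pairs. The curves of the edges lie on each other and lean to the right, towards extension in round spermatids.

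Neighbouring spermatocyte islands were more often under a single round spermatid island than the reverse. A round spermatid island held 2 or more spermatocyte islands in 1590 cases, 4.70% (4.48 to 4.94) of that list, with 3343 spermatocyte islands among them; held means sharing at least 1 bp. A spermatocyte island held 2 or more round spermatid islands in 614 cases, 1.51% (1.39 to 1.63), with 1251 islands among them. Joins were thus 2.59 times as frequent as splits. With the spermatocyte list shortened by fold to the length of the round spermatid list there were 1010 joins and 576 splits, a smaller excess of joins. After islands under 2000 bp apart had been joined in both lists there were 1009 joins and 189 splits. Joins thus outnumbered splits under each of these settings.

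Most joins spanned short gaps. Of spermatocyte gaps of 800 bp, the shortest in the lists, 644 of 1218 or 52.9% (50.0 to 55.7) were covered by a single round spermatid island, and of round spermatid gaps of that length 380 of 1099 or 34.6% (31.8 to 37.5) by a single spermatocyte island. Covered gaps of 2000 to 4800 bp were 396 of 3393 or 11.7% and 48 of 2178 or 2.204%. At 5000 to 9800 bp they were 65 of 4766 or 1.36% and 4 of 2981 or 0.134%. In both directions longer gaps had the lower share. Of gaps of 10 kb and over, 2 of 29416 spermatocyte gaps and 2 of 26063 round spermatid gaps were covered, too few to set the directions apart.

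**Figure D3:**
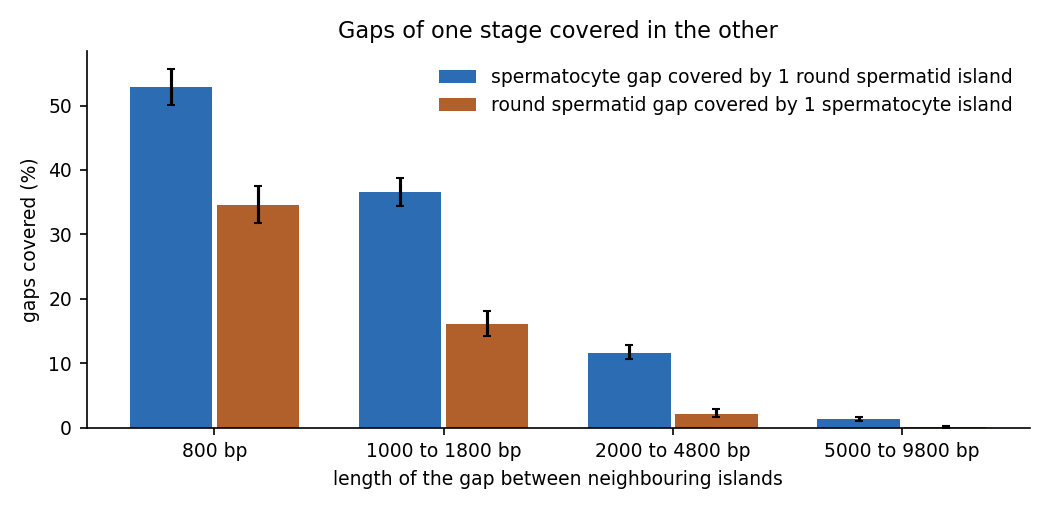
Percent of gaps between neighbouring H4K8bu islands that a single island of the other stage covers, by gap length, with 95% exact binomial intervals. Spermatocyte gaps were covered more often at every length drawn, from 52.9% against 34.6% at 800 bp to 1.36% against 0.134% at 5000 to 9800 bp.

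Regions joined in round spermatids and regions split there differed in their spermatocyte fold. The 1441 joined regions had a median spermatocyte fold of 4.51 (4.36 to 4.65) and a median round spermatid fold of 4.22 (4.14 to 4.28). The 469 split regions had 6.01 (5.74 to 6.30) and 4.07 (3.94 to 4.18). Round spermatid levels of the joined and split regions were thus close, while regions held by a single spermatocyte island stood higher in spermatocytes.

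The most complete joins took in 5 spermatocyte islands each. At chr5:147288001-147341000, 5 islands covering 20800 bp in spermatocytes (fold 3.33, 2.94 to 3.78) lay under 1 island of 53000 bp in round spermatids (fold 3.98, 3.68 to 4.29). At chr2:83793801-83834600 the fold was 2.92 and 3.20, and at chr9:106443401-106477600 it was 3.15 and 3.65. In all 3 the fold over the round spermatid island was slightly higher than over the spermatocyte islands, with intervals that overlapped.

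The spermatocyte island that held the most round spermatid islands lay at chr17:66514401-66578400. It was 64.0 kb wide with a fold of 7.90 (7.35 to 8.49), and the 7 round spermatid islands that touched it had a fold of 3.31 (3.06 to 3.58). These 7 measured 54200 bp in all, in part beyond its edges, and covered 63.1% of it. At chr2:92368001-92439600 an island of 71.6 kb with a fold of 9.78 held 4 round spermatid islands with a fold of 3.68 that covered 74.3% of it, and at chr7:77022401-77089800 one of 67.4 kb with 9.27 held 4 with 3.82 that covered 70.0% of it. In all 3 the round spermatid fold was the lower one, over islands that took up only a part of the ground.

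Very wide islands had a higher fold in the spermatocyte list than in the round spermatid list, and only in part lay at the same places. Of the 34 spermatocyte islands of 30 kb or more, 2 lay on input at least 5 times as dense as the list's median, and the 32 others had a median fold of 8.56 (1.92 to 11.8 over islands). All 32 overlapped round spermatid islands, which covered a median of 91.1% of their bases at a median fold of 4.09, and 27 of the 32 were higher in spermatocytes. The widest lay at chr12:99617201-99691400, with 8118 ChIP reads over 1000 input reads (fold 9.61, 9.001 to 10.3) and a pair of round spermatid islands with a fold of 5.21 (4.81 to 5.65). At chr9:54055801-54124600 the values were 8.56 and 3.36.

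Of the 75 round spermatid islands of 30 kb or more, 5 lay on such dense input and 70 did not. Those 70 had a median fold of 5.10, close to the 4.92 of the spermatocyte islands they overlapped, and 49 of them held 2 or more spermatocyte islands. Of these 70, 16 overlapped a spermatocyte island of 30 kb or more, and 16 of the 32 spermatocyte islands overlapped such a round spermatid island. Wide round spermatid islands were mostly unions of spermatocyte islands of similar fold, and 32 of the 70 were higher than their spermatocyte counterpart. The 3 widest of all were among those on dense input, at chr8:19913601-20038000 (124.4 kb, 124.8 input reads per kb, fold 1.21), chr11:3022201-3102200 (fold 1.17) and chr8:19679201-19740600 (fold 1.57). Islands on dense input were few, 27 in spermatocytes and 54 in round spermatids, with median folds of 1.47 and 1.59 and with 1.29% and 3.82% of the input reads of their lists.

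At the pairs the fold over input was lower in round spermatids by about as much as the lists as a whole. Spermatocytes had a median of 4.73 and round spermatids one of 3.86, and the median log2 ratio was -0.29 (-0.31 to -0.28). It was lower in round spermatids in 62.3% of pairs. With the fold of each list centred on its own median the sign turned, to 0.033, so relative to the rest of its list the median pair stood no lower in round spermatids. Each fold covers the bases of its own island, so islands of unequal width are compared over unequal ground.

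A fold in round spermatids at least 2 times that in spermatocytes was found at 483 pairs, 2.26% of them, and one at most 0.5 times at 4048 pairs, 19.0%. In spermatocytes the 483 had a median fold of 2.35, against 5.24 in round spermatids, and the 4048 had 8.71 and 3.38. The pairs were chosen by the ratio of these folds, so the order of the medians is set by the choice. Across the 21342 pairs, which share the input of their stage, Pearson's r between the stages was 0.36 for log2 fold and 0.76 for log2 width, so width was the more alike of these features.

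Pairs with the same edges allow a reading over identical ground. In these 409 pairs, 106452 ChIP reads in spermatocytes stood against 84533 in round spermatids, a ratio of 0.794, and 29274 input reads against 34383, a ratio of 1.17. The fold of the pooled reads was 4.31 and 3.76. The median fold was 5.64 and 4.06, and the median log2 ratio was -0.51 (-0.64 to -0.42), with 284 of the 409 (69.4%) lower in round spermatids. Pooled reads, to which the deepest islands add most, thus gave a smaller difference than the median pair. Grouped by width change, the median log2 ratio was -0.55 for pairs of the same width, -0.51 where the spermatocyte island was wider by under 2 times and -0.16 where the round spermatid island was wider by under 2 times. The log2 ratio was therefore nearest to 0 where the island was wider in round spermatids.

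Named pairs show the range. At chr19:58334001-58337600 the fold was 15.6 (10.4 to 24.5) in spermatocytes, from 330 ChIP and 25 input reads, and 2.19 (1.63 to 2.94) in round spermatids, from 116 and 81. At chr4:127841801-127846000 it was 14.4 (10.5 to 20.2) and 2.59 (1.91 to 3.54), and at chr5:15259201-15263800 it was 11.2 (8.56 to 15.0) and 1.96 (1.47 to 2.62). H4K5bu and H4K5ac were lower in round spermatids at these 3 places as well, at 8.28 to 8.78 against 2.49 to 3.97 for H4K5bu and 14.0 to 19.9 against 3.11 to 3.72 for H4K5ac. The marks of a stage share an input, so part of this agreement is built in. Input at these H4K8bu islands was 10.5 to 13.2 reads per kb in spermatocytes and 16.4 to 25.3 in round spermatids.

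In the other direction, the fold at chr6:110695001-110698200 was 2.15 (1.57 to 2.96) in spermatocytes, from 116 ChIP and 64 input reads, and 6.49 (4.90 to 8.70) in round spermatids, from 263 and 62. At chr8:15590201-15593600 it was 1.83 (1.34 to 2.50), from 108 and 70 reads, and 5.56 (4.01 to 7.85), from 171 and 47. The islands of each of these pairs were 3000 bp wide in spermatocytes and 3200 bp in round spermatids, so here a nearly equal interval was compared. The largest ratio in this direction was at chr18:18519001-18524200, with 2.65 (1.93 to 3.68) and 9.54 (6.97 to 13.3). Its islands were less alike, at 3800 bp in spermatocytes and 5200 bp in round spermatids. Input at the named pairs of this direction was 15.3 to 23.3 reads per kb in spermatocytes and 8.85 to 19.4 in round spermatids, lower in each. All named pairs were chosen for the size of their ratio, and their intervals are not adjusted for that choice.

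Regions of a single stage were distributed differently along the chromosomes in each stage. Chromosomes 1 to 19 were divided into windows of 1 Mb, and the 2415 in which at least 1 region began were used. Windows without any region were left out of the means, variances and correlations below. A window held a mean of 9.69 shared regions, 6.44 regions of spermatocytes alone and 4.05 regions of round spermatids alone. The variance of the number per window was 5.52 times the mean for shared regions and 3.06 times for spermatocytes alone, but 1.31 times for round spermatids alone, near the value of 1 that independent placement gives. Numbers of regions of spermatocytes alone thus varied widely between windows. Those of round spermatids alone varied less, though still more than independent placement gives.

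The number of regions of spermatocytes alone in a window followed the number of shared regions, and that of round spermatids alone did not. Across the 2415 windows, which share libraries and lie side by side, Pearson's r with the number of shared regions was 0.56 for spermatocytes alone (Spearman's rho 0.62) and -0.16 for round spermatids alone (rho -0.15). The 72 windows with regions of a single stage but no shared region held on average 1.85 regions of spermatocytes alone and 4.31 of round spermatids alone. Both means would be lower with the empty windows counted. Windows with 10 to 19 shared regions held 8.46 and 3.82, and those with 20 or more 10.4 and 3.33. There were 2.33 regions of round spermatids alone for each region of spermatocytes alone in windows without shared regions, and 0.319 in those with 20 or more. As a share of all regions, spermatocytes alone made up between 27.3% and 33.9% in every band of windows, lowest in the densest, so their number kept step with the total. The share of round spermatids alone was 69.98% in windows without a shared region, 41.6%, 25.5% and 14.8% in the bands between and 8.71% in the densest. The bands are defined by the shared regions, so some of this order is built in. The 3105 regions of round spermatids alone in windows with 0 to 4 shared regions had a median fold of 2.92 (2.89 to 2.96), and the 908 in the richest windows 2.48 (2.42 to 2.55), so those in sparse windows were the higher ones of their class.

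The fold at pairs followed the same axis, and it did so in spermatocytes. In windows with 1 to 4, 5 to 9, 10 to 19 and 20 or more shared regions, the median spermatocyte fold of pairs was 3.34, 3.79, 4.74 and 5.82. In round spermatids it was 3.91, 3.87, 3.82 and 3.90, nearly level. The median log2 ratio of the stages therefore ran from 0.26 (0.22 to 0.29) over 1614 pairs in the sparse windows to -0.53 (-0.55 to -0.51) over 5953 pairs in the dense ones. The bands are defined by islands of these same lists. Input at regions of spermatocytes alone was 15 reads per kb with 0 to 4 shared regions and 13.75 with 20 or more. At regions of round spermatids alone it was 18.6 and 18.5. The part of input density or scaling in the order of the folds was not tested. Pairs at least 2 times higher in round spermatids were 6.07% of pairs in the sparse windows and 0.790% in the dense ones, and pairs at most 0.5 times as high 10.2% and 24.0%. Widening was more frequent in sparse windows too, at 76.8% of pairs against 65.0%.

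**Figure D4:**
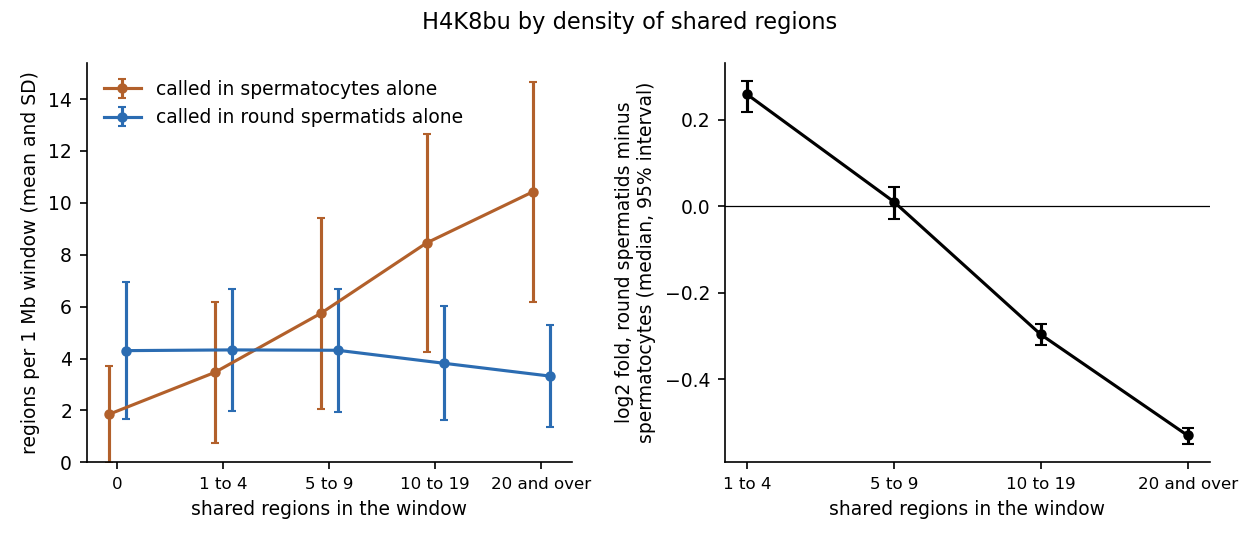
Left: regions called in a single stage per 1 Mb window against the number of shared H4K8bu regions in the window. Points are means and SD over windows holding at least 1 region. Regions of spermatocytes and of round spermatids alone numbered 1.85 and 4.31 at 0 and 10.4 and 3.33 at 20 and over. Right: median log2 fold of round spermatids minus spermatocytes at pairs in the same windows, with its 95% interval, from 0.26 in windows with 1 to 4 shared regions to -0.53 in those with 20 and over.

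Neighbours along the chromosome were alike as well. After a region of spermatocytes alone, the next region was of the same class in 38.7% (37.97 to 39.5), where the class made up 31.9% of all regions. For round spermatids alone it was 32.8% (31.9 to 33.8), where the class made up 20.1%, and for shared regions 53.5% against 48.0%. A region of round spermatids alone followed one of spermatocytes alone in 16.8%, below its share of all regions, and the reverse held in 26.4%, also below the share of the class. The classes of a single stage were thus next to each other less often than their numbers alone would give.

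Runs of neighbours of a class differed in length on the chromosome. The longest run of regions of round spermatids alone had 16 regions over 2416.4 kb at chr3:10492201-12908600, with a fold of 2.83 (2.59 to 3.11), and no H4K5bu island of spermatocytes against 21 of round spermatids lay there. The longest run of spermatocytes alone had 10 regions over 497.8 kb at chr3:86152401-86650200, with a fold of 4.24 (3.77 to 4.78) and no H4K5bu or H4K8ac island of round spermatids. Runs of 8 or more spanned a median of 773.4 kb for round spermatids alone (29 runs) and 273.2 kb for spermatocytes alone (31 runs). The runs of round spermatids alone thus had their islands further apart.

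Shared regions formed the longest runs by number. At chr9:108039201-108427800 there were 18 in a row within 388.6 kb, with a spermatocyte fold of 6.11 (5.80 to 6.45) and a round spermatid fold of 4.25 (4.06 to 4.44). At chr8:87332201-87608200 there were 17 within 276 kb, with 7.12 and 5.07. Among single windows, that with the most regions of spermatocytes alone lay at chr13:66000001-67000000, with 39 such regions and 3 of round spermatids alone. Its spermatocyte islands had a fold of 2.17 on an input of 30.2 reads per kb, against a list median of 14.2 reads per kb. The next, at chr15:96000001-97000000, had 24 and 0 on ordinary input of 14.1 reads per kb with a fold of 4.99. The window with the most regions of round spermatids alone lay at chr17:22000001-23000000, with 16 and 5 of spermatocytes alone.

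Whole chromosomes kept this order. Shared regions ran from 7.50 per Mb on chromosome 3 to 12.8 per Mb on chromosome 11. The number of regions of round spermatids alone for each of spermatocytes alone was lowest on chromosome 19, at 0.409, and highest on chromosome 1, at 0.770, with a median of 0.628 over the 19 chromosomes, so spermatocytes alone had more on every one. That order rests on the full lists. With lists of equal length, spermatocytes alone made up 28.5% of all regions and round spermatids alone 29.6%. The share of round spermatid islands found in spermatocytes was lowest on chromosome 3 (64.7%) and highest on chromosome 11 (78.9%), the same chromosomes that were poorest and richest in shared regions. Both values count the shared regions, so some of this match is built in. Pairs wider in round spermatids made up 64.6% on chromosome 19 to 75.2% on chromosome 14, and the median log2 fold ratio ran from -0.47 on chromosome 19 to -0.085 on chromosome 14. On every chromosome most pairs were thus wider in round spermatids, and the median fold ratio as deposited was below 0 on the log2 scale.

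The other marks of a region were mostly those of the stage in which H4K8bu had been called. At regions of H4K8bu in spermatocytes alone, an H4K5ac island was found in spermatocytes at 89.9%, an H4K5bu island at 78.2% and an H4K8ac island at 72.8%. In round spermatids the same places had H4K5ac at 15.1%, H4K5bu at 17.8% (17.2 to 18.4) and H4K8ac at 3.26%. None of the 3 other marks had a round spermatid island at 74.9% of them. Where H4K8bu was uncalled in the later stage, the other marks were thus mostly uncalled too.

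At regions of round spermatids alone, H4K5ac was found in round spermatids at 87.2%, H4K5bu at 86.3% and H4K8ac at 41.9%. In spermatocytes the values were 15.2% for H4K5ac, 3.59% (3.23 to 3.98) for H4K5bu and 2.16% for H4K8ac, and 82.4% had none of the 3. H4K5ac was therefore the mark most often called there in the earlier stage. It also had the longest spermatocyte list, with 43505 islands against 37578 for H4K5bu and 35370 for H4K8ac. In round spermatids H4K8ac had the shortest list, with 27526 islands against 36549 for H4K5ac and 40185 for H4K5bu. The part of list length in these shares was not tested. The value for H4K5bu depends on the weaker spermatocyte islands: with the spermatocyte H4K8bu list shortened by fold to the 33800 islands of the round spermatid list it was 15.6%. Shared regions had H4K5ac in 95.7% and 97.7%, H4K5bu in 84.0% and 97.2% and H4K8ac in 82.4% and 85.5%, in spermatocytes and round spermatids.

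**Figure D5:**
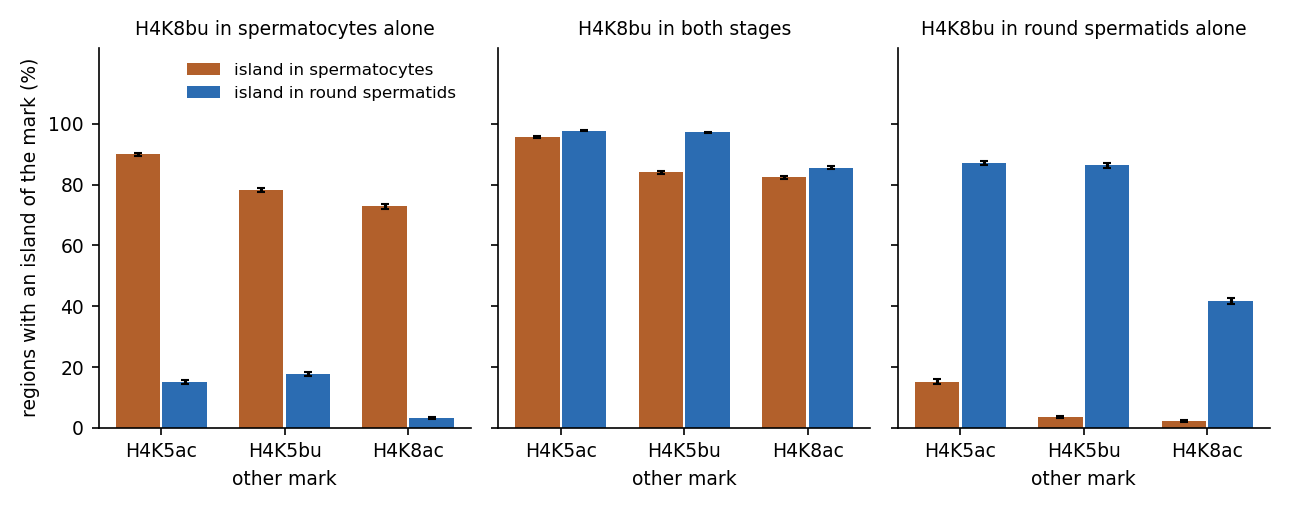
Percent of H4K8bu regions that hold an island of H4K5ac, H4K5bu or H4K8ac in spermatocytes and in round spermatids, with 95% exact binomial intervals, for regions of spermatocytes alone, of both stages and of round spermatids alone. The other marks are called mainly in the stage of the H4K8bu island, and H4K8ac has the lowest bar of each group, at 41.9% for round spermatids alone. H4K8ac also has the shortest list in each stage.

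The regions where H4K5bu was called in the stage without H4K8bu differed from the rest of their class. The 2768 regions of H4K8bu in spermatocytes alone with an H4K5bu island in round spermatids had a median width of 2200 bp and an H4K8bu fold of 4.85, against 1800 bp and 4.05 without one. Those round spermatid H4K5bu islands had a median fold of 2.95, below the 3.48 of their list. The 351 regions of H4K8bu in round spermatids alone with an H4K5bu island in spermatocytes were 3600 bp wide at a fold of 2.55, against 2600 bp and 2.79. In both directions the H4K8bu regions with an island of the other butyryl mark in the opposite stage were thus the wider ones. The same held for H4K8ac and for H4K5ac. With either mark the widths were 2400 against 1800 bp for spermatocytes alone and 3400 against 2600 bp for round spermatids alone. A wider region also meets an island of any mark more readily, so part of this order is built in.

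The presence of H4K8ac also split the regions of round spermatids alone by where they lay. The 4091 with an H4K8ac island in the same stage had a variance of 1.34 times the mean per window and r of -0.22 with shared regions, and the 5680 without one 1.06 times and r of -0.016. The latter were close to what independent placement gives. In regions of spermatocytes alone the variance was 2.36 and 1.98 times the mean with and without H4K8ac, so their numbers varied between windows in either case.

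Where the H4K8bu fold at pairs differed most between stages, the other marks differed in the same direction. At the 483 pairs at least 2 times higher in round spermatids, the median log2 ratio was 1.197 for H4K5bu over the 261 pairs with an H4K5bu island in both stages, 1.05 for H4K5ac over 421 and 0.71 for H4K8ac over 231. At the 4048 pairs at most 0.5 times as high it was -0.60 for H4K5bu over 3855 pairs, -1.10 for H4K5ac over 3887 and -1.06 for H4K8ac over 3118. A further 219 of the 483 pairs had an H4K5bu island in round spermatids and none in spermatocytes. Over all pairs with islands in both stages the medians were -0.061 for H4K5bu, -0.25 for H4K5ac and -0.43 for H4K8ac. The medians of the marks rest on different pairs and are given side by side only. The 4 lists of a stage share an input, so these ratios are not independent of each other. The pairs were chosen by a ratio that includes this input, so part of the common direction is built in. Median input reads in spermatocytes and round spermatids were 66 and 64 at the 483 pairs and 36 and 64 at the 4048. Over all pairs they were 54 and 82. These counts are over islands of unequal width.

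Set beside the other marks on the same chromosomes, H4K8bu had the list with the largest change in width after H4K5ac. Median widths in spermatocytes and round spermatids were 3000 and 4000 bp for H4K8bu, 2600 and 3600 bp for H4K5ac, 2600 and 3200 bp for H4K8ac and 3200 bp in both for H4K5bu. The round spermatid island was the wider one at 68.8% of pairs for H4K8bu, 72.4% for H4K5ac, 54.1% for H4K8ac and 52.8% for H4K5bu. In all 4 marks the numbers per window varied less for regions of round spermatids alone than for those of spermatocytes alone. For round spermatids alone the variance was 1.31 times the mean for H4K8bu and 1.30 to 1.46 times for the others. For spermatocytes alone it was 3.06 and 2.79 to 3.05 times. Whether the marks differ in any of these values was not tested, since each has 1 library per stage.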

How the data were processed

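For each island the deposited lists give, without a header, its coordinates, counts of reads from the ChIP and the input library, a p-value, a fold ratio and a q-value. Per the submitters' processing notes, the tools were CASAVA 1.8.2, Bowtie2 2.2.5, deepTools 1.5.11 and SICER on mm9. The sources used here give no tool settings, library sizes or handling of duplicates. The deposited fold was the ratio of counts times 1 constant per list, and all deposited q-values were below 0.01. Edges lie on a grid of 200 bp and islands of a list are at least 800 bp apart.

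Python 3.11.15 with pandas 2.3.3, numpy 2.4.6, scipy 1.17.1 and matplotlib 3.10.9 was used. Islands sharing at least 1 bp across the stages, directly or through a further island, formed a region. The fold of a region sums the reads of its islands. Intervals are 95%: exact binomial (Clopper-Pearson) for shares, exact conditional binomial for folds and order statistics for medians, and reads lacking molecular identifiers cannot count as independent molecules. The scripts were tested on simulated lists. No count model was fitted, because each stage has 1 library.

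The named regions were, per stage, the 4 regions of that stage alone with the most ChIP reads at a fold of at least 3, the 3 widest islands, the 3 islands holding most islands of the other stage, the longest runs, the windows of 1 Mb richest in regions of that stage alone and the island with the densest input. They also include the 3 pairs per direction with the largest fold ratio among the 15311 with at least 100 ChIP and 20 input reads in each stage. The text gives those it needs. The members and lists were chosen with earlier results of these data known. The bands of windows, the islands of 30 kb or more and the values of other marks at pairs were added after seeing the data. Genes, promoters and sequences are not analysed here, since the reference tables at hand are for another build.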

Additional observations from a re-analysis of the deposited data

Results flagged for a closer look

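The H4K8bu lists also held islands on Y and on mitochondrial DNA, which the comparison of chromosomes 1 to 19 leaves out. They are given because a signal over input was deposited there. On Y, 28 spermatocyte islands had 12455 ChIP reads over 10101 input reads, a pooled fold of 1.46 (1.42 to 1.499), and 42 round spermatid islands had 31359 over 30246, a pooled fold of 1.59 (1.56 to 1.61). Their input, 85.3 and 146 reads per kb, was several times as dense as on the other chromosomes. On mitochondrial DNA, 1 spermatocyte island of 16200 bp had 877 ChIP reads over 881 input reads, a fold of 1.18 (1.07 to 1.30), and round spermatids had no island. Chromosome X was left out as well. It held 582 spermatocyte islands at a pooled fold of 5.24 and 965 round spermatid islands at 3.04. On X the round spermatid list was thus the longer one, unlike on chromosomes 1 to 19.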

How the results depend on the processing

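Of 68 values under 7 alternative settings, 41 stayed the same by the rule used, 26 moved and 1 reversed. With each list's fold centred on its median, the log2 fold ratio of pairs went from -0.29 to 0.033. Lists of equal length (33800 islands, which leaves the round spermatid list whole and drops the spermatocyte islands of lowest fold) gave 60.8% of spermatocyte and 59.3% of round spermatid islands overlapping the other stage, in place of 61.8% and 71.1%. They gave 68.0% of pairs wider in round spermatids (68.8%), 1010 joins (1590), a log2 fold ratio of -0.49, 36.2% of next neighbours alike for spermatocytes alone (class share 28.5%) and 41.0% for round spermatids alone (29.6%), and H4K5bu of the other stage at 18.5% of regions of spermatocytes alone (17.8%) and 15.6% of those of round spermatids alone (3.59%). With lists of equal length the order of the stages turned in the overlap. It also turned in the class shares, at 28.5% for spermatocytes alone and 29.6% for round spermatids alone. In the main setting these shares were 31.9% and 20.1%. The rule rates each value by itself and does not mark such a turn. Overlap of at least 50% of an island's own bases gave 60.1% and 64.1%. Islands with q of at most 1e-10 gave 61.2% of spermatocyte islands overlapping, a log2 ratio of median widths of 0.49 (0.42), a log2 fold ratio of -0.33, and H4K5bu at 14.1% and 2.57%. Islands under 2000 bp apart, once joined, gave 61.3% overlapping, a log2 width ratio of 0.49, 1009 joins, 189 splits (614), 37.2% of next neighbours alike for spermatocytes alone and H4K5bu at 2.99% of regions of round spermatids alone. With X included, 69.9% of round spermatid islands overlapped and 35.1% of next neighbours were alike for round spermatids alone (32.8%). Without the 1% of islands with the densest input, all values stayed within their rule. In the settings that leave out islands, fewer islands were compared, and beyond this the cause was not tested. No paired analysis was possible because each stage has 1 library and no replicate number.

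List length alone was not varied, since each setting that shortens a list also removes islands by fold, q or input, or joins them. No island of either list had fewer than 26 ChIP reads, and a region of 1 stage is uncalled in the other rather than shown to lack the mark. Differences between animals, fractions and immunoprecipitations cannot be told apart from differences between the stages.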
